A study of Mus musculus with 6 samples.

Results

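The Sidekick, Dscam and contactin genes encode adhesion molecules of the immunoglobulin superfamily that neurons carry on their surface. All genes whose symbol was Sdk1, Sdk2, Dscam, Dscaml1 or Cntn followed by a number were taken, which gave 9 of the 15450 named genes of the deposited table: Sdk1, Sdk2, Dscam, Dscaml1, Cntn1, Cntn2, Cntn3, Cntn4 and Cntn6. They rested on 19 of its 26691 transcript rows. Cntn5, of the same name pattern, was not analysed here.

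Live Thy1-positive cells were sorted from dissociated mouse retinas and profiled by RNA-seq of polyadenylated RNA. The AAV-Sox11 group had 3 libraries from eyes injected with an adeno-associated virus (AAV) carrying Sox11, a transcription factor of developing neurons, and the AAV-Control group had 3 libraries from eyes injected with the same kind of virus carrying PLAP. Both groups shared an optic nerve crush, 3 days ahead of tissue collection, and a period of 2 weeks with the virus, in mice about 3 to 4 weeks of age at the start, so no uncrushed eye entered the comparison. Each library, named A, B or C, pooled 3 retinas of 3 animals, and the AAV-Sox11 and AAV-Control libraries of a letter were prepared on the same day. The labels give neither the viral promoter nor the mouse strain. The study set out to compare injured ganglion cells with and without added Sox11, and the values below are those of the cells sorted for this, which also held markers of other retinal cells.

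Sidekicks are large transmembrane proteins that bind their own kind on the opposite cell, and in the retina each is concentrated at synapses of certain sublayers of the inner plexiform layer, where amacrine and bipolar cells meet ganglion cells. Dscam and its relative Dscaml1 also bind their own kind, and in the mouse retina they keep neighbouring cells of a type, and their processes, from clumping. Contactins are held in the membrane by a lipid anchor and work with partners such as the Caspr proteins, neurofascin and the amyloid precursor protein, in axon growth, in the choice of targets and at the nodes of myelinated axons.

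Shown are the promoters of Sdk2, which passed the test over all genes given below, and of Sdk1, Dscam and Cntn2, which did not. A link of promoter sequence to the values was not tested. Dscaml1 had no entry among the promoters used, so its promoter was neither shown nor searched. Each line is the RefSeq sequence (GRCm38.p6) from 250 bases before to 50 bases after the annotated start, on the strand of the gene, with each CG in capitals.
Sdk2, chr11:114066980-114067279, minus strand: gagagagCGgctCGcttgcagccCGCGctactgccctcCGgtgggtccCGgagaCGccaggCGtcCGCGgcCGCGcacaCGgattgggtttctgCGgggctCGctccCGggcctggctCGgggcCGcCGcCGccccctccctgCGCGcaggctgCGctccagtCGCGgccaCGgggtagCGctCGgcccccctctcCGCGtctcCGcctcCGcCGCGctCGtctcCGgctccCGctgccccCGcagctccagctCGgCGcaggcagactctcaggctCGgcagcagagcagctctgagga
Sdk1, chr5:141241284-141241583, plus strand: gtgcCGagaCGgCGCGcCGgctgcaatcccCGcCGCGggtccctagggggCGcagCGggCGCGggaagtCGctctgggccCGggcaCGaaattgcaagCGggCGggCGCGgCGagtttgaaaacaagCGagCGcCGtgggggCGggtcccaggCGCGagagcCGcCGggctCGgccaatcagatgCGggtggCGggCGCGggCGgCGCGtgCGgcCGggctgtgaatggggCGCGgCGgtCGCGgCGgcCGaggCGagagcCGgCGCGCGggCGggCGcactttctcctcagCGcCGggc
Dscam, chr16:97170686-97170985, minus strand: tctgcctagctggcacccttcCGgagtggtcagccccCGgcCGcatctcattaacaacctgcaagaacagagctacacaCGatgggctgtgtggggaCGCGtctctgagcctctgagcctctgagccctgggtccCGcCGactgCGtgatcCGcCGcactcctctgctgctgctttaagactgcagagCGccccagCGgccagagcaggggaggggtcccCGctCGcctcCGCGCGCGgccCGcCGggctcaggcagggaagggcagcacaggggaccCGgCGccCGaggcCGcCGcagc
Cntn2, chr1:132542891-132543190, minus strand: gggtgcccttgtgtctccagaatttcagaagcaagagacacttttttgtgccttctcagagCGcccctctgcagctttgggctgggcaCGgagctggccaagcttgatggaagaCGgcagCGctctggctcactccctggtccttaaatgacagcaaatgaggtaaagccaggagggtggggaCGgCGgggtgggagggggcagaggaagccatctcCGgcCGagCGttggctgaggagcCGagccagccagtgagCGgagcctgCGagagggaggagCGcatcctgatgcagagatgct
The Sidekick promoters were the richest in G and C among those shown, at 76.7% for Sdk2 and 78.3% for Sdk1, with 41 and 54 CG. Those of Dscam and Cntn2 had 70.0% and 61.3%, with 26 and 13 CG, against a median of 52.7% and 7 CG over 32851 mouse promoters. ACAAAG and ACAATG, letters that the DNA-binding domain of Sox proteins is known to prefer, were searched on both strands. Neither occurs in the windows of Sdk1, Sdk2, Dscam, Cntn2, Cntn3, Cntn4 or Cntn6, and ACAATG occurs in 1 of the 3 windows of Cntn1. Over all promoters, 28.6% hold at least 1 of the 2, 18.7% ACAAAG and 12.6% ACAATG.

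Values below are the authors' normalized values, summed over the transcript rows of a gene and called scaled values. The whole-number columns behind them sum to between 10747985 and 11546892 per library. Fold changes are AAV-Sox11 over AAV-Control on the log2(value + 1) scale, with the standard error (SE) of a limma fit over all genes and a Benjamini-Hochberg adjusted p. Sox11 itself had 179.3, 233.7 and 283.6 in AAV-Sox11 libraries A, B and C, against 131.1, 110.8 and 100.3 in AAV-Control libraries A, B and C (log2 fold change 1.003 ± 0.20, SE, limma adjusted p = 0.0504). The labels call the cells retinal ganglion cells, and 9 of 12 ganglion cell markers were measured, none at 0, with summed values of 8224 to 10662 in AAV-Sox11 and 6786 to 10033 in AAV-Control libraries. The ganglion cell marker Rbpms had 41.8 ± 1.41 in AAV-Sox11 and 42.4 ± 12.9 in AAV-Control libraries (SD, n = 3 each), a log2 fold change of 0.02. Other ganglion cell markers moved more: Pou4f2 had 1.47, Slc17a6 0.99 and Nefh 0.77, each without overlap of the groups. The median of the 9 was 0.59, with 2 below 0, Nefl (-0.33) and Nefm (-0.39), and none past a limma adjusted p of 0.05. Markers of other cells were present too: rod markers summed to 23876 to 43621 in AAV-Sox11 and 38153 to 60479 in AAV-Control libraries, and amacrine markers to 17482 to 20561 in AAV-Sox11 and 21006 to 24149 in AAV-Control libraries. In such mixed sorted cells, fewer cells of a type and less RNA per cell cannot be told apart. One direction across the 6 libraries holds no spread in the deposited values, and AAV-Sox11 B, A and C carry 57.7%, 18.4% and 12.5% of its squared weight. Small SDs of the AAV-Sox11 group therefore cannot be read as tighter replicates.

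Of the 9 genes, Sdk2 fell and none rose at an adjusted p under 0.05, where 2.32% of all genes passed, 1.52% lower and 0.796% higher. Without AAV-Sox11 A, B or C, none of the 15450 genes passed in limma (3120, 1942 and 2953 had an unadjusted p under 0.05). In Sdk2, Dscaml1 and Cntn4 the 3 AAV-Sox11 values all lay below the 3 AAV-Control values, which held for 14.4% of all genes, while 16.2% had no overlap in the higher direction and 30.7% in either. Log2 fold changes were below 0 in 7 of the 9, against 46.2% of all genes, and their median was -0.44, against 0.03 over all genes. With the same-day letters as a replicate block in the fit, Sdk2, Dscaml1 and Cntn2 passed, where 4.77% of all genes passed in that fit, 2.68% lower and 2.09% higher. At an unadjusted p under 0.05, 4 of the 9 were lower, against 11.8% of all genes. With 9 members of several families chosen by name, these counts describe them and are not a test of the group.

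**Figure D1:**
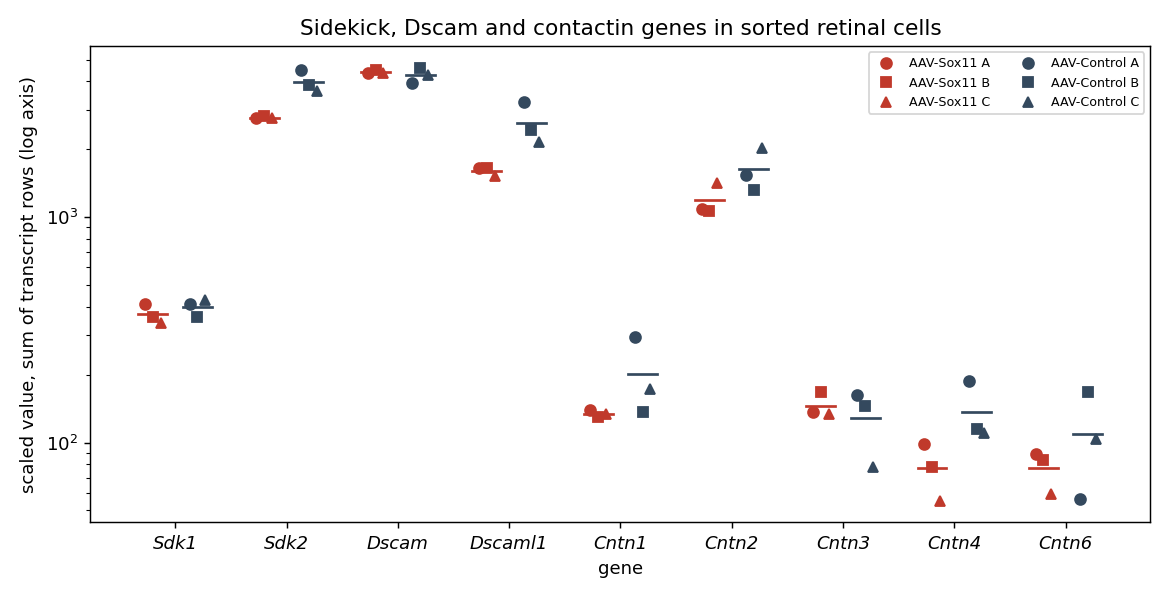
Scaled value of each gene in each library on a log axis, with AAV-Sox11 in red on the left and AAV-Control in dark blue on the right, libraries A, B and C as circle, square and triangle, and the group mean as a line. The groups stand apart in Sdk2, Dscaml1 and Cntn4, while in Sdk1, Dscam and Cntn3 they lie over each other.

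**Figure D2:**
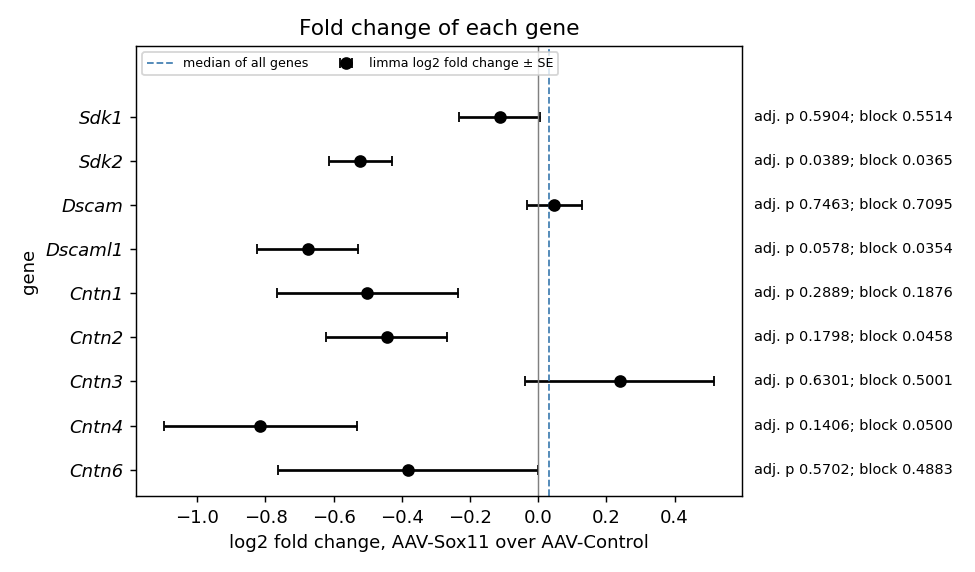
Log2 fold change of each gene, AAV-Sox11 over AAV-Control, with the SE of the limma fit over 3 libraries a group as bars, and at the right the adjusted p without and with the replicate block. Sdk2 has an adjusted p of 0.0389. Of the fits shown, Dscaml1 (0.0578 without the block) and Cntn2 (0.180 without it) pass in the one with the block. Cntn4 stands at 0.05001 with the block, just above 0.05.

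Sdk2, which in the mouse is known to join an amacrine cell type that carries the vesicular glutamate transporter Slc17a8 to motion-sensitive ganglion cells, was lower with AAV-Sox11. It had 2749, 2799 and 2755 in AAV-Sox11 libraries A, B and C, against 4487, 3841 and 3641 in AAV-Control libraries A, B and C. Every AAV-Sox11 library lay below every AAV-Control library, and control A was the highest. The means were 2768 ± 27.0 with AAV-Sox11 and 3989.95 ± 442 with AAV-Control (SD, n = 3 libraries each), a log2 fold change of -0.52 ± 0.09 (SE, limma adjusted p = 0.0389, and 0.0365 with the replicate block), lower in 3 of 3 same-day pairs. The call ended, with a log2 fold change of -0.52, when the direction without spread was a covariate (adjusted p = 0.113), and at -0.63 with a sex index of the pooled animals added (adjusted p = 0.139). That index, log2 Xist minus the mean log2 of Y-linked genes, was 6.87, 8.11 and 8.45 in AAV-Sox11 libraries A, B and C, against 6.82, 6.79 and 5.26 in AAV-Control libraries A, B and C. Every AAV-Sox11 value of the index lay above every AAV-Control value. The fit with it therefore cannot fully separate the index from the virus, and 0 genes passed in that fit. The call also ended without AAV-Sox11 A, B or C (adjusted p = 0.117, 0.199 and 0.126) and without AAV-Control A (0.0580). Slc17a8 had 112 ± 30.1 in AAV-Sox11 and 109 ± 108 in AAV-Control libraries (SD, n = 3 each, limma adjusted p = 0.676), with a spread in the controls nearly as large as its mean.

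Sdk1, which marks other synaptic sublayers than Sdk2, had 412, 361 and 339.9 in AAV-Sox11 libraries A, B and C, against 414, 359.9 and 430.4 in AAV-Control libraries A, B and C. The groups overlap, and the log2 fold change was -0.11 ± 0.12 (SE, limma adjusted p = 0.590). It was 0.087 with the sex index added, -0.19 without AAV-Sox11 A or AAV-Control B, -0.052 without AAV-Sox11 C and -0.061 without AAV-Control C. The ratio of Sdk2 to Sdk1, taken within each library on the log2 scale, was 2.74, 2.95 and 3.01 in AAV-Sox11 libraries A, B and C, against 3.44, 3.41 and 3.08 in AAV-Control libraries A, B and C. The ratio was thus lower in every AAV-Sox11 library than in every control, by -0.41 on average (exact permutation test, two-sided, p = 0.10, the smallest that 3 against 3 allows, and 0.15 adjusted over 3 ratios).

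Dscaml1, known in the mouse retina for the spacing of rod bipolar and amacrine cells, had 1657, 1654 and 1518 in AAV-Sox11 libraries A, B and C, against 3244, 2441 and 2145 in AAV-Control libraries A, B and C. All AAV-Sox11 values lay below all AAV-Control values, and control A was again the highest. The means were 1609.7 ± 79.1 with AAV-Sox11 and 2609.8 ± 569 with AAV-Control (SD, n = 3 libraries each). The log2 fold change of -0.68 ± 0.15 (SE) did not pass over all genes, with a limma adjusted p of 0.0578, and passed with the replicate block, at 0.0354, but not with the block and the direction without spread together, at 0.0727. It was lower in 3 of 3 same-day pairs and was -0.51 without AAV-Control A.

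Dscam, which in the mouse retina separates the dendrites of amacrine and ganglion cells of a type, had 4359.9, 4486 and 4375 in AAV-Sox11 libraries A, B and C, against 3921, 4609 and 4288 in AAV-Control libraries A, B and C. The AAV-Sox11 values lay within the range of the controls. Its log2 fold change was 0.05 ± 0.08 (SE, limma adjusted p = 0.746), and its sign turned under library-size and upper-quartile scaling, at -0.016 and -0.00060. The log2 ratio of Dscaml1 to Dscam within a library was -1.40, -1.44 and -1.53 in AAV-Sox11 libraries A, B and C, against -0.27, -0.92 and -0.999 in AAV-Control libraries A, B and C. The groups did not overlap, with a difference of -0.72 (exact permutation test, two-sided, p = 0.10, and 0.15 adjusted over 3 ratios).

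Markers of other cells were set beside these values, and 2 of them passed. Over all genes, 46.2% were below 0, and 1.52% fell and 0.796% rose in limma. With the replicate block 2.68% of all genes fell and 2.09% rose. Summed bipolar markers were 6738 to 7747 in AAV-Sox11 and 8201 to 13669 in AAV-Control libraries, with 10 of 10 measured markers below 0 on the log2 scale, none past an adjusted p of 0.05 (1 fell with the replicate block) and none at 0 in any library. The median of the bipolar markers was -0.83. Of them, the receptor subunit gene Grik1 had -2.05 ± 0.55 (SE) and the kinase gene Prkca -0.06 ± 0.09. Grik1 had 1608, 287 and 778 in AAV-Control libraries A, B and C, highest in A as Sdk2 and Dscaml1 were. Prkca was instead highest in AAV-Control B. Of 10 measured amacrine markers 2 fell, the glycine transporter gene Slc6a9 (-0.93 ± 0.18, SE, limma adjusted p = 0.0481) and the transcription factor gene Prox1 (-0.74 ± 0.08, adjusted p = 0.0153), and the median of the 10 was 0.02. Rod markers were below 0 in 8 of 9, with a median of -0.52, none passed, and 5 fell with the replicate block. No marker of cones, horizontal cells, Muller glia, astrocytes, microglia, vessels or oligodendrocytes passed, with list medians from -0.84 to -0.02, and 1 microglia marker, Tmem119, fell with the replicate block (adjusted p = 0.0287), while the 9 ganglion cell markers had a median of 0.59 with none passing and 2 that rose with the replicate block. The part of these shifts in the values of Sdk2 and Dscaml1 was not tested.

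Cntn2, known as TAG-1 or axonin, is carried by growing axons and clusters potassium channels beside the nodes. It had 1087, 1065 and 1412 in AAV-Sox11 libraries A, B and C, against 1546, 1318 and 2024 in AAV-Control libraries A, B and C. The groups overlap through AAV-Sox11 C and AAV-Control B, while each AAV-Sox11 library lay below the control of its day and C was the highest in both groups. The log2 fold change was -0.44 ± 0.18 (SE, limma adjusted p = 0.180), and -0.44 with an adjusted p of 0.0458 with the replicate block, and of 0.141 with the block and the direction together. It was -0.28 without AAV-Control C and -0.30 with the sex index.

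Cntn1, which forms the junctions of axon and myelin beside the nodes together with Caspr, had 139.7, 129.8 and 134 in AAV-Sox11 libraries A, B and C, against 294, 136 and 173 in AAV-Control libraries A, B and C. The control values spread over a range of more than 2-fold, and AAV-Control B lay within the AAV-Sox11 range. Its log2 fold change was -0.50 ± 0.27 (SE, limma adjusted p = 0.289) and -0.19 without AAV-Control A. The log2 ratio of Cntn2 to Cntn1 averaged 3.12 ± 0.23 in AAV-Sox11 and 3.07 ± 0.60 in AAV-Control libraries (SD, n = 3 each), a difference of 0.06 (exact permutation test, two-sided, p = 0.9, also 0.9 adjusted over 3 ratios).

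Cntn4, which in the mouse works with the amyloid precursor protein in ganglion cell axons that innervate an accessory visual nucleus, had 99.0, 77.9 and 55.3 in AAV-Sox11 libraries A, B and C, against 187, 115 and 109.97 in AAV-Control libraries A, B and C. The groups did not overlap, and A was the highest and C the lowest in both. The log2 fold change of -0.81 ± 0.28 (SE) had the greatest size of the 9, with a limma adjusted p of 0.141, and of 0.05001 with the replicate block, just above the threshold. It was -0.57 without AAV-Control A.

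Cntn3, a contactin known from brain neurons, had 137, 167 and 134 in AAV-Sox11 libraries A, B and C, against 163, 145 and 78.1 in AAV-Control libraries A, B and C. The groups overlap and AAV-Control C was the lowest of the 6, and the log2 fold change of 0.24 ± 0.28 (SE, limma adjusted p = 0.630) was -0.084 without that library and -0.31 with the sex index. Cntn6, a contactin known from cerebellar and cortical neurons, had 88.6, 84.1 and 59.3 in AAV-Sox11 libraries A, B and C, against 56.3, 168 and 104 in AAV-Control libraries A, B and C. The controls held both the lowest and the highest value, and the log2 fold change was -0.38 ± 0.38 (SE, limma adjusted p = 0.570) with a wide dependence on single libraries, at -0.01 without AAV-Control B, -0.20 without AAV-Sox11 C and -0.79 without AAV-Control A.

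Levels of different genes were compared per kilobase of transcript, dividing each row by its length in GENCODE M21 and summing the rows of a gene. Dscam stood at 497 scaled units per kilobase on average over the 6 libraries, above 88.0% of genes, and its range of 449 to 527 did not meet that of Sdk2. Sdk2 and Dscaml1 followed, at 334 and 306, with ranges of 270 to 434 and 220.5 to 471 that overlap each other, and Dscaml1 in AAV-Control A lay above Dscam in the same library (471 against 449). Cntn2 came next at 196, its range of 149 to 282 reaching into those of Sdk2 and Dscaml1. Sdk1, Cntn4, Cntn1, Cntn6 and Cntn3 lay between 26.5 and 59.2, in ranges that overlap from each to the next and lie below that of Cntn2.

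The table gives its values per transcript, and several rows of these genes are not full messages. Of the 19 rows, 13 are annotated as protein-coding and 6 as retained introns or processed transcripts without a coding sequence. Cntn6 was measured only by Cntn6-203, a retained-intron transcript of 2 exons, and 53.9% of Cntn1 by Cntn1-203, another such transcript, so the values of these genes stand partly or wholly for RNA that encodes no contactin. In contrast, Sdk2-201, with 45 exons and 6528 coding bases, held 94.4% of Sdk2, and Sdk1-202 held 85.6% of Sdk1. Dscam, Dscaml1, Cntn2 and Cntn3 each rested on 1 protein-coding row. No stretch of 50 bases of any of the 19 transcripts occurs in a row of another of the 9 genes, whereas 19.7% to 96.4% of the stretches of a row from a gene with several rows also occur in the others of its gene. The labels do not say how reads shared by such rows were divided.

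**Figure D3:**
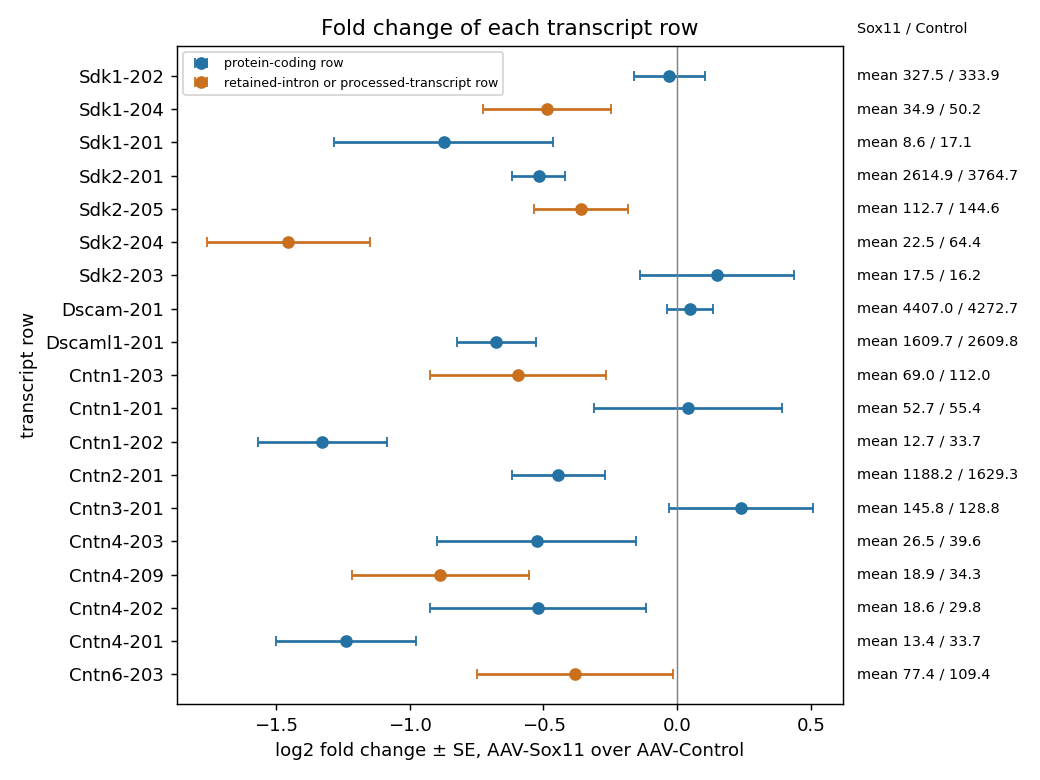
Log2 fold change of each of the 19 transcript rows, AAV-Sox11 over AAV-Control, with the SE of the limma fit over all rows (3 libraries a group), coloured by annotated type, and mean scaled values of both groups at the right. Sdk2-204, Cntn1-202 and Cntn4-201 lie lowest, at -1.45, -1.33 and -1.24, on low mean values in both groups.

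In the fit over all 26691 rows, Sdk2-201 and Cntn1-202 fell and none of the 19 rose, where 1.97% of all rows passed, 1.46% lower and 0.513% higher. With the replicate block, 4.51% of all rows passed, 2.93% lower and 1.58% higher. In 6 rows the groups did not overlap, all lower with AAV-Sox11, against 15.3% of all rows in that direction and 28.3% in either, and 15 of the 19 were below 0, against 50.3% of all rows. In the authors' deposited table, 5 of the 19 rows were lower at a false discovery rate under 0.05, against 4.91% of all rows: Sdk2-201, Sdk2-204, Dscaml1-201, Cntn1-202 and Cntn4-201. Their rates there were 0.00595, 0.000867, 0.00168, 0.00242 and 0.0069.

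Sdk2-201 had 2589, 2642 and 2614 in AAV-Sox11 libraries A, B and C, against 4284, 3604 and 3406 in AAV-Control libraries A, B and C, so it held most of the difference of the gene (log2 fold change -0.52 ± 0.10, SE, limma adjusted p = 0.0453, and 0.108 with the direction without spread as a covariate). Cntn1-202 has 3060 coding bases, as Cntn1-201 does, but starts at 92161357 rather than 92128188 and is shorter, at 3964 against 5646 bases. It had 13.6, 11.4 and 13.1 in AAV-Sox11 libraries, against 36.9, 26.5 and 37.6 in AAV-Control libraries A, B and C. Its groups were far apart (log2 fold change -1.33 ± 0.24, SE, limma adjusted p = 0.0396, and 0.112 with the direction as a covariate), while Cntn1-201 had 42.8, 56.1 and 59.3 in AAV-Sox11 libraries, against 88.4, 46.1 and 31.8 in AAV-Control libraries A, B and C. Since 92.2% of the stretches of 50 bases of Cntn1-202 also occur in the other Cntn1 rows, the 2 rows may not have been measured apart.

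Sdk2-204 is a short transcript of 2 exons that leaves the coding message at the end of exon 2 and runs 1696 bases into the next intron. The 2 transcripts are shown around that point (GENCODE M21, GRCm38, chromosome 11, minus strand, exon 2 ending at 113943119), with the 30 bases they share in lower case and the 30 bases that follow in capitals, exon 3 in Sdk2-201 and intron in Sdk2-204.
Sdk2-201: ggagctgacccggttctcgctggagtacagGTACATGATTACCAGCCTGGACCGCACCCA
Sdk2-204: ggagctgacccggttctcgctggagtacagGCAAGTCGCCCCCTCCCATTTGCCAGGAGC
Sdk2-204 had 18.8, 18.7 and 30.2 in AAV-Sox11 libraries A, B and C, against 53.4, 49.0 and 90.7 in AAV-Control libraries A, B and C. All AAV-Sox11 values lay below all AAV-Control values, and C was the highest in both groups. Its log2 fold change was -1.45 ± 0.30 (SE, limma adjusted p = 0.0532, and 0.0254 with the replicate block). It made up 0.683%, 0.668% and 1.09% of Sdk2 in AAV-Sox11 libraries A, B and C, against 1.19%, 1.28% and 2.49% in AAV-Control libraries A, B and C. Sdk2-205 follows the coding message to exon 12 and then runs 1392 bases into the intron, and had 125, 119 and 93.5 in AAV-Sox11 libraries, against 139, 168 and 127 in AAV-Control libraries A, B and C (log2 fold change -0.36 ± 0.18, SE, limma adjusted p = 0.275, and -0.23 without AAV-Sox11 C).

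Leaving out single libraries, an alternative chosen after seeing the data, ended the call of Sdk2-201 in 4 of 6 fits and that of Cntn1-202 in 5 of 6. Over all rows, 0 passed without AAV-Sox11 A, B or C, and 0 passed in the lower direction without AAV-Control A. The loss in those 4 fits was therefore shared by every row that fell and is not particular to these transcripts. For Sdk2-201 the adjusted p was 0.115, 0.207 and 0.119 without AAV-Sox11 A, B and C and 0.0770 without AAV-Control A, and the call was kept without AAV-Control B (0.0496) and C (0.0446). For Cntn1-202 it was 0.0992, 0.228 and 0.108 without AAV-Sox11 A, B and C, and 0.0890 and 0.0704 without AAV-Control A and C, and the call was kept without AAV-Control B (0.0328).

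The 4 rows of Cntn4 each held between 21.9% and 30.8% of the gene. Cntn4-201 had 14.6, 13.5 and 12.1 in AAV-Sox11 libraries A, B and C, against 44.7, 28.4 and 27.97 in AAV-Control libraries A, B and C, without overlap (log2 fold change -1.24 ± 0.26, SE, limma adjusted p = 0.0541, and 0.0419 with the replicate block). Cntn4-202, with the longest coding sequence of the 4, had a log2 fold change of -0.52 ± 0.41, Cntn4-203 of -0.53 ± 0.37 and Cntn4-209, without a coding sequence, of -0.89 ± 0.33 (SE each). Without AAV-Control A, Cntn4-202 had -0.071 and Cntn4-203 -0.21. Without AAV-Control C they had -0.85 and -0.83, and without AAV-Sox11 C -0.34 and -0.25. The groups overlap in these 3 rows.

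All 6 rows without a coding sequence had log2 fold changes below 0, from -1.45 to -0.36 with a median of -0.54. Over the 8902 rows of those types in the whole table, 57.0% were below 0 with a median of -0.06, against 41.9% and 0.07 over 13426 protein-coding rows. The 13 protein-coding rows here had a median of -0.52, with 9 below 0 and 4 above it. Rows of a gene share sequence, so these counts describe the rows and are no test.

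Sdk2 lies on chromosome 11 (113776374 to 114067046, minus strand), Sdk1 on 5 (141241490 to 142215586, plus), Dscam on 16 (96590840 to 97170752, minus), Dscaml1 on 9 (45426628 to 45753712, plus), Cntn1 on 15 (92051165 to 92341967, plus) and Cntn2 on 1 (132509427 to 132543256, minus), in GRCm38. Cntn3 (102162655 to 102573101, minus), Cntn4 (105677660 to 106699310, plus) and Cntn6 (104492790 to 104863406, plus) neighbour each other on chromosome 6. All 9 are annotated as protein-coding. Antisense or other genes overlap Sdk1, Dscam, Dscaml1 and Cntn3 on the opposite strand, and it is unknown whether strand was used in counting, so reads from such pairs may not be separate. A gene model on the same strand, Gm44189, overlaps Cntn3 over 3083 bases, which strand could not separate. Sdk2 and the other contactins measured have no overlapping gene in the annotation.

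Genes for proteins that bind these molecules lay on either side of 0. Among 20 measured genes for binding partners and scaffolds, 0 passed in limma and 10 were below 0, against 2.32% and 46.2% of all genes. The median was -0.01, against 0.03 over all genes. At an unadjusted p under 0.05 there were 6 of the 20, against 24.3% of all genes, and with the replicate block 2 rose. The lowest p-values were those of Unc5c, a netrin receptor that binds Dscam, with 1990.2 ± 241 in AAV-Sox11 and 1074 ± 300.1 in AAV-Control libraries (SD, n = 3 each, limma adjusted p = 0.0584, and 0.0287 with the block), and of Pak1, a kinase known to bind human DSCAM, with 701 ± 88.5 in AAV-Sox11 and 463 ± 76.3 in AAV-Control libraries (adjusted p = 0.0733, and 0.0343 with the block). In both genes all AAV-Sox11 values lay above all AAV-Control values.

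Among 34 measured genes of other immunoglobulin-superfamily adhesion molecules, 3 fell and 0 rose in limma, against 1.52% and 0.796% of all genes. The remaining 31 did not pass. Log2 fold changes were below 0 in 21 of the 34, against 46.2% of all genes, and the median was -0.06, against 0.03. At an unadjusted p under 0.05 there were 14 of the 34, against 24.3% of all genes. Ptprf, a receptor tyrosine phosphatase of axons and synapses, had 2957 ± 37.9 in AAV-Sox11 and 5313 ± 61.3 in AAV-Control libraries (SD, n = 3 each, log2 fold change -0.85 ± 0.06, SE, limma adjusted p = 0.0113). Kirrel3, a synaptic adhesion molecule, had -0.61 ± 0.08 (adjusted p = 0.0169) and Mdga2, which holds back neuroligin at synapses, -0.51 ± 0.10 (adjusted p = 0.0480). With the direction without spread as a covariate, their adjusted p-values were 0.0580, 0.0835 and 0.130. Summed values of the list were 61914 to 63091 in AAV-Sox11 and 65189 to 76307 in AAV-Control libraries.

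**Figure D4:**
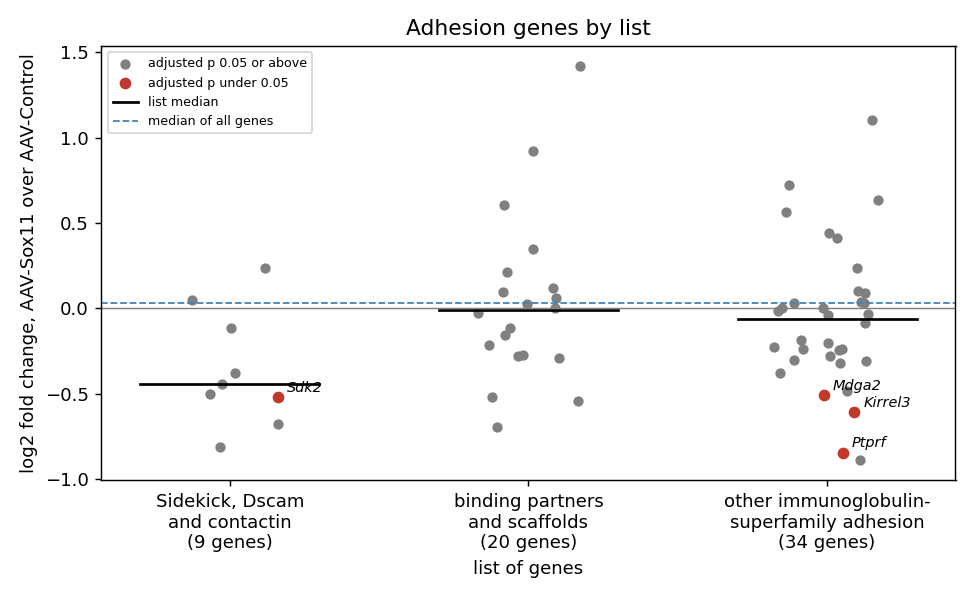
Log2 fold change, AAV-Sox11 over AAV-Control, of each gene in the 3 lists, with genes past an adjusted p of 0.05 in red, the median of each list as a black bar and the median of all genes as a dashed line. The Sidekick, Dscam and contactin genes have a median of -0.44, the binding partners -0.01 and the other adhesion genes -0.06.

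For each gene, the 2 others whose log2 values followed it most closely over the 6 libraries were picked among 9511 genes of mean value at least 100. These were Tmem132d and Gpr162 for Sdk2 (Pearson r = 0.998 and 0.997), Nsun4 and Gigyf2 for Sdk1 (0.992 and 0.991), Map1s and Chrm1 for Dscam (0.999 and 0.997), and Rtbdn and Zswim5 for Dscaml1 (0.997 and 0.995). For the contactins they were Plcb4 and Osmr for Cntn1 (0.997 and 0.995), Tnfrsf11a and Srm for Cntn2 (0.996 and 0.995), Ipmk and Ncoa1 for Cntn3 (0.9995 and 0.999), Rpgrip1 and Epb4.1 for Cntn4 (0.997 both) and Gm15527 and Rbm48 for Cntn6 (0.997 and 0.996). With 6 libraries that share their days, groups and adjustment, between 48 and 401 of the 9511 genes had r above 0.9 with a given member. The named genes were picked as the highest of these, so their r is no test of a link. Of the named genes, Tmem132d, a transmembrane protein of neurons, fell (log2 fold change -0.84 ± 0.13, SE, limma adjusted p = 0.0253).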

How the data were processed

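Polyadenylated RNA of sorted retinal cells was sequenced in 3 AAV-Sox11 and 3 AAV-Control libraries. Per the submitters' processing notes, CASAVA 1.8.2 and edgeR were used, with build mm10. Alignment, counting, use of strand and annotation were not given in the sources used here. Whole-number columns were deposited by the authors and treated as a score because 1 of the 5 directions in which 6 libraries can differ holds no spread beyond rounding (an SD of 9.48e-05 natural log units, against 0.098 in the next smallest). The deposited normalized columns, a signal, equal them times 1 factor per library (0.965 to 1.04). The authors' deposited log2 fold changes and p-values are named as theirs. Rows without a gene name (357, 0.422% to 0.517% of a library) were left out of gene sums.

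Normalized values were summed per gene name and tested by limma-trend (limma 3.58.1, R 4.3.3) on log2(value + 1), two-sided, with Benjamini-Hochberg adjustment over 15450 genes. A minimum mean value of 1 removed no gene. A second fit used the 26691 rows. Simulated gene values with known changes served to test the gene fit. Their errors were independent between libraries, so the direction without spread was not part of that test. Same-day preparation, per the series description, pairs the letters; same-letter deviations correlated at 0.00, 0.79 and 0.24 for A, B and C. The replicate block, scaling, pseudocount, filter, covariates and left-out libraries were alternatives. The p-values rest on the spread between pooled libraries of a group, not between single animals. Technical effects that the libraries of a group may share are not in that spread. Genes and lists were chosen with earlier results of these data known. All genes of the name pattern are named, with, from each related list, the genes past the threshold or else the 2 of lowest p, and the 2 genes most like each member. Other genes were singled out after their values were seen. Transcript lengths and sequences come from GENCODE M21 (GRCm38), which matched 99.1% of named rows, and promoters from RefSeq.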

Additional observations from a re-analysis of the deposited data

How the results depend on the processing

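Sdk2 had a log2 fold change below 0 under each of the 22 alternatives run, but its call was lost under 10 of them. With the direction without spread as a covariate it was -0.52 and 0 genes were higher and 0 lower. With that covariate and the replicate block together it was -0.52 and did not pass (limma adjusted p = 0.0990), while 63 genes were higher and 69 lower. The sex index, computed from sex-linked genes, did not overlap between the groups. With it as a covariate, Sdk2 had -0.63, Sdk1 0.087 and Cntn3 -0.31, and 0 genes were higher and 0 lower. At an unadjusted p under 0.05 there were 2582 genes with the direction and 2702 with the sex index. With the replicate block, Dscaml1 (-0.68) and Cntn2 (-0.44) passed, with 323 genes higher and 414 lower, against 123 and 235 without it, and 423 rows higher and 781 lower, against 137 and 390. The block changed no other call of the 9 genes; among rows, Sdk2-204, Dscaml1-201, Cntn2-201 and Cntn4-201 passed with it. With the direction, 18 rows were higher and 37 lower. Under library-size scaling Dscaml1 passed at -0.74 and Dscam had -0.016, with 356 genes lower. Under upper-quartile scaling Dscaml1 passed at -0.72 and Dscam had -0.00060, with 355 genes lower. Without both libraries of a day, Sdk2 had -0.43 (A), -0.55 (B) and -0.58 (C), each not passing, Dscam had -0.0050 without A and Cntn3 -0.026 without C, with 1, 1 and 0 genes higher and 0 lower in each. Leaving out 1 library at a time gave 0 to 339 genes higher and 0 to 406 lower, and 0 to 369 rows higher and 0 to 661 lower. Over the same fits Sdk2 ran from -0.58 to -0.43, Dscam from -0.013 to 0.10, Dscaml1 from -0.81 to -0.51, Sdk1 from -0.19 to -0.052, Cntn1 from -0.74 to -0.19, Cntn2 from -0.59 to -0.28, Cntn4 from -1.01 to -0.57, Cntn6 from -0.79 to -0.0082 and Cntn3 from -0.084 to 0.44, and the difference in the ratio of Cntn2 to Cntn1 from -0.28 to 0.30. Dscaml1 passed without AAV-Control C. Among rows, whose left-out libraries were an alternative chosen after seeing the data, those that turned sign were Cntn1-201 from -0.29 to 0.44, Cntn3-201 from -0.084 to 0.44, Dscam-201 from -0.013 to 0.10, Sdk1-202 from -0.11 to 0.046 and Sdk2-203 from -0.11 to 0.34. The causes were not tested. Since the deposited whole numbers are not read counts, no count test was run, and depth limits could not be set.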
